A study of Mus musculus with 12 samples.

Results

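Mouse mammary tumor cells were profiled for the expression of 41 genes of fatty acid oxidation, lipolysis and the peroxisome proliferator-activated receptors (PPARs). The genes were taken by name from a list chosen with earlier results of these data known. Their counts beside the share of all genes are therefore not independent tests. All 41 were found among the 52550 genes of the expression table, and all 41 were among the 16823 genes kept for testing. Bulk RNA-seq had been made from D2A1 and D2.OR, related cell lines from separate murine mammary tumors, of which D2A1 keeps proliferating and D2.OR stops in a 3D matrix. Each line was grown in 2D on plastic and in 3D on top of growth-factor-reduced Matrigel, with 3 libraries in each of 4 groups, and neither line carried a further treatment or engineered allele according to the labels. The 3D medium held horse serum, hydrocortisone, cholera toxin and insulin. The sources describe the 2D medium in 2 ways, so that a difference of culture format and one of medium cannot be told apart. Each library pooled several wells of 1 line, and 3D cells were freed from the Matrigel in cold recovery solution before RNA extraction, a step that the 2D cultures are not described to share. Libraries with the same replicate number shared a batch and a sequencing lane.

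Fatty acid oxidation shortens fatty acids inside mitochondria and peroxisomes and passes the electrons to the respiratory chain. Long-chain fatty acids are released from triglycerides by lipases or taken up from outside, activated to acyl-CoA, and carried into the mitochondrion by the carnitine shuttle, where repeated rounds of dehydrogenation, hydration, dehydrogenation and thiolysis follow. The PPARs are nuclear receptors that bind fatty acids and, paired with retinoid X receptors, switch on many of these genes. PPAR-alpha is best known from liver, PPAR-gamma from adipocytes and PPAR-delta from most tissues.

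The libraries held 47589610 to 73325069 counts (median 61747125). The epithelial keratin gene Krt8 reached 227 to 1022 TPM (transcript level scaled to transcript length and library size) in every D2.OR library and at most 2.31 TPM in D2A1. Epcam was at or below 0.17 TPM in D2A1 and Krt5 had no count in either line in 2D. Of the 4 mesenchymal markers, Vim was at or above 733 TPM and Fn1 at or above 281 TPM in all 12 libraries, and Cdh2 was at most 0.14 TPM in any. Between the lines Vim (log2 fold change 1.93 in 2D and 1.25 in 3D) and Cdh2 (4.71 and 3.92) were higher and Zeb1 (-2.68 and -3.21) was lower in D2.OR (edgeR adjusted p below 0.05), and Fn1 did not pass in either culture. The 4 fibroblast markers summed to 15.7 to 41.2 TPM over the D2A1 libraries and to 88.7 to 212 TPM over the D2.OR libraries. Pdgfra and Col1a1 were higher in D2.OR in both cultures, and Lum in 2D only (edgeR adjusted p = 0.0416). Dcn did not pass in either culture, at log2 fold changes of 2.35 in 2D and -0.73 in 3D. The part of these markers in the differences between the lines was not tested. The macrophage and leukocyte markers summed to 2.33 to 32.2 TPM, of which Cd68 alone held 2.22 to 32.1 TPM. Ptprc, Adgre1, Csf1r and Cd3e each reached at most 0.53 TPM. Of the 8 epithelial markers, 3 exceeded 1 TPM in a D2A1 library, Krt18 among them at 92.7 to 294 TPM, and 7 did so in a D2.OR library. Of the 7 tested, 6 were higher and none lower in D2.OR in 2D, and 5 were higher and 1 lower in 3D, the lower one being Cldn3 (5.92 to 16.5 TPM in D2A1 3D and 2.0 to 4.56 TPM in D2.OR 3D). The 4 endothelial markers summed to at most 0.42 TPM in any library. The 6 adipocyte markers (Adipoq, Plin1, Cidec, Lep, Cfd and Retn) summed to 0.10 to 0.28 TPM over the D2A1 libraries, to 0.96 to 6.36 TPM in D2.OR 2D, and to 12.02, 188 and 38.9 TPM in replicates 1, 2 and 3 of D2.OR 3D. In bulk RNA, a change in the share of cells of a type and a change in RNA per cell cannot be told apart.

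The promoters of 4 of the 5 genes called higher in D2.OR 3D than in D2.OR 2D, and of the receptor gene Pparg, are shown because PPARs act through a direct repeat of the half-site AGGTCA. Reference windows (RefSeq starts, GRCm38.p6) were held for 34 of the 41 genes, in 39 windows. Angptl4, Cpt1b, Acaa2, Acad9, Decr1, Fabp4 and Hsd17b4 had no entry. Each sequence below is the 250 bases before 1 annotated start, in the direction of the gene, with any half-site on either strand in capitals.
Cd36 (chr5:17835897-17836146, minus strand): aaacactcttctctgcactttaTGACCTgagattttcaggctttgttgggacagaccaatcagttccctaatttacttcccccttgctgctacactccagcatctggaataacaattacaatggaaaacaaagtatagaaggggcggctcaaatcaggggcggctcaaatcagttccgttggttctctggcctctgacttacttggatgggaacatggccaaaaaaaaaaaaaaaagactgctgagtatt
Mgll (chr6:88724162-88724411, plus strand): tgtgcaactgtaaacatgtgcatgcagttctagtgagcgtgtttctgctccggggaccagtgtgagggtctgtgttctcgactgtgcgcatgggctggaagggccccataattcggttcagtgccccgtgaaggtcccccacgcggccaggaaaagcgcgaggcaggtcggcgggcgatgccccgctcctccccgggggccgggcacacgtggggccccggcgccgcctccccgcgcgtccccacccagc
Acsl1 (chr8:46470787-46471036, plus strand): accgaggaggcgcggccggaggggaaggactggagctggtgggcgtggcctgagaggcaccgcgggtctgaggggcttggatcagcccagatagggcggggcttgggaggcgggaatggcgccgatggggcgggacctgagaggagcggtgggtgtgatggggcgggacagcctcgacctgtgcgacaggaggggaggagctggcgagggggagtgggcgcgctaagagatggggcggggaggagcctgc
Ppara (chr15:85735526-85735775, plus strand): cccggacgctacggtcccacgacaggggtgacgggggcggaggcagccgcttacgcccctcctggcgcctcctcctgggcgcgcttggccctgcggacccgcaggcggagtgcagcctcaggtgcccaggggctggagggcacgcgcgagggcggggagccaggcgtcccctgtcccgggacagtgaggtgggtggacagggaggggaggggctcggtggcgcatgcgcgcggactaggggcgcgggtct
Pparg (chr6:115360894-115361143, plus strand): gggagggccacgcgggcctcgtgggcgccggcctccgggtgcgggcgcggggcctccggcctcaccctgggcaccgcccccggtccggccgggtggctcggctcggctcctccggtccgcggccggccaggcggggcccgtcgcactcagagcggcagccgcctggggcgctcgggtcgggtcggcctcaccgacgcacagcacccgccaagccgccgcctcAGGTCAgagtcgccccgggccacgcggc
The Cd36 window holds the half-site 228 bases before the start, on the minus strand of the gene, and a direct repeat with 2 mismatches 63 bases before it. The Pparg window holds a half-site 28 bases before the start, and the Mgll, Acsl1 and Ppara windows shown hold none. The half-site stood in 9 of the 39 windows (23.1%) and in 14.0% of all 32851 reference windows. The direct repeat AGGTCANAGGTCA, searched on both strands and overlapping the half-site search, had no exact match in the 39 windows (0.0335% of all windows). With up to 2 mismatches it stood in 4 of them (10.3%), those of Cd36, Plin2, Echs1 and Etfa, and in 3.24% of all windows. These are matches of letters in short windows, and enhancers farther away were not searched.

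The 41 genes differed widely in level. Plin2, which coats lipid droplets, had the highest mean TPM of the 41 in each group (602 to 845 TPM). In both D2A1 groups the electron transfer genes Etfa and Etfb and the dehydrogenase gene Acadl held ranks 2 to 4 (156 to 198 TPM). In both D2.OR groups the thiolase gene Acaa2 was second (420 TPM in 2D and 402 in 3D), and Acadm, Etfa, Etfb and Angptl4 held ranks 3 to 6. At the other end, Cd36, Ehhadh, Pparg and Mgll averaged under 1 TPM in both D2A1 groups, and Ppara and Cpt1c did so in both D2.OR groups. Between 36 and 38 of the genes averaged above 1 TPM in each group. The median of the 41 mean levels was 42.5 TPM in D2A1 2D, 33.2 in D2A1 3D, 41.7 in D2.OR 2D and 63.4 in D2.OR 3D.

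The first comparison asked how the lines differed in 2D. Of the 41 genes, 21 passed an adjusted p of 0.05 (edgeR quasi-likelihood test with batch in the model, Benjamini-Hochberg over all genes tested), 8 higher and 13 lower in D2.OR. Over all genes tested, 49.8% passed, 25.4% as higher and 24.4% as lower, so that the share of these genes that differed was close to that of the transcriptome. Their median log2 fold change was -0.15, against -0.00 over all genes. The TPM of the lines did not overlap for 25 of the 41 genes and for 52.8% of all genes.

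The PPAR genes differed between the lines in opposite directions. Pparg (chr6:115360951-115490399) stood at 0.11, 0.09 and 0.04 TPM in replicates 1, 2 and 3 of D2A1 2D and at 17.6, 3.32 and 2.79 TPM in D2.OR 2D. It was higher in every D2.OR library, by a log2 fold change of 7.11 (SE 1.29, edgeR adjusted p = 0.00176), on 2 to 5 counts per library in D2A1. Ppara (chr15:85734983-85802819) went the other way, with 2.27, 1.53 and 2.00 TPM in D2A1 2D and 0.13, 0.07 and 0.05 TPM in D2.OR 2D. Its log2 fold change was -4.42 (SE 0.31, edgeR adjusted p = 7.34e-06), and the groups did not overlap. Ppargc1a (chr5:51454250-51567726), which encodes the coactivator PGC-1alpha, was lower in D2.OR, at 8.58, 8.57 and 9.91 TPM in D2A1 2D and 4.14, 0.87 and 0.82 TPM in D2.OR 2D. Its log2 fold change was -2.54 (SE 0.44, edgeR adjusted p = 0.00132), and the batch 1 difference of -0.95 was smaller than the -3.33 and -3.37 of batches 2 and 3. Ppard (chr17:28232754-28301469), the receptor gene of most tissues, was at 40.8, 52.5 and 56.0 TPM in D2A1 2D and at 42.0, 59.3 and 66.1 TPM in D2.OR 2D. The groups overlapped, and the log2 fold change of 0.28 (SE 0.10, edgeR adjusted p = 0.0415) lost its call when each of 10 single libraries was left out in turn (adjusted p 0.0525 to 0.174). Ppard made up 96.0% ± 1.33 (SD, n = 3) of the summed TPM of the 3 receptors in D2A1 2D and 86.9% ± 14.4 in D2.OR 2D. The Pparg share was 0.163% ± 0.0929 and 12.9% ± 14.3 in those groups, with the D2.OR 2D libraries between 4.05% and 29.5%.

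Of the 5 genes of the carnitine shuttle, Cpt1a and Cpt1b were higher and Cpt1c lower in D2.OR 2D, and Cpt2 and Slc25a20 did not pass. The Cpt1 genes encode carnitine palmitoyltransferase 1, the enzyme that admits long-chain fatty acids to mitochondria, in a liver form, a muscle form and, for Cpt1c, a neuronal form with little enzyme activity. Cpt1c (chr7:44959372-44974851) was at 16.5, 17.5 and 17.1 TPM in D2A1 2D and at 1.03, 0.69 and 0.80 TPM in D2.OR 2D. The groups were far apart, with a log2 fold change of -4.24 (SE 0.20, edgeR adjusted p = 8.66e-07). Cpt1c was thus 28.4% ± 2.90 (SD, n = 3) of the summed Cpt1 TPM in D2A1 2D and 1.40% ± 0.337 in D2.OR 2D. Cpt1a (chr19:3323301-3385732) carried most of that sum in both lines, at 36.0, 41.7 and 49.7 TPM in D2A1 2D and 55.3, 55.3 and 62.9 TPM in D2.OR 2D. Its log2 fold change of 0.60 (SE 0.20, edgeR adjusted p = 0.0327) did not pass without D2.OR 2D replicate 1 (adjusted p = 0.164) or replicate 2 (0.0538), or without D2A1 2D replicate 2 (0.107) or replicate 3 (0.0951). Cpt1b (chr15:89416405-89425863) was low, at 0.96, 0.99 and 1.13 TPM in D2A1 2D and 1.11, 1.80 and 1.72 TPM in D2.OR 2D. Its log2 fold change on counts was 1.34 (SE 0.24, edgeR adjusted p = 0.00169) while the TPM of the groups overlapped. Cpt1b shares its strand and part of its span with Chkb, which reached 38.8 to 58.4 TPM, so its counts are uncertain.

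The acyl-CoA dehydrogenase family includes the enzymes of the first step of each round, for chains of different length. The genes of this family were mostly lower in D2.OR 2D. Of 7 genes 6 were lower and none was higher. The largest difference was that of Acad10 (chr5:121621026-121660514), at 9.88, 11.1 and 11.5 TPM in D2A1 2D and 2.99, 2.63 and 1.94 TPM in D2.OR 2D (log2 fold change -1.99, SE 0.19, edgeR adjusted p = 5.1e-05). Acadvl, for very long chains, had a log2 fold change of -1.07, as did Acad11, and Acads, for short chains, had -0.98. Acadl and Acad9 followed with -0.91 and -0.58. The calls of Acadl and Acads were lost without batch 3 (edgeR adjusted p 0.0724 and 0.0721). Acadm, for medium chains, had -0.02 (SE 0.32). Etfdh, which passes electrons from these enzymes to ubiquinone, was also lower (-1.05), while the flavoprotein subunit genes Etfa and Etfb did not pass (-0.14 and -0.18). Acadvl and Etfdh overlap other genes on the opposite strand and Acad9 an antisense gene annotated on its own strand, and whether counting used strand is not given in the sources used here.

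Downstream of the dehydrogenases, single genes stood out in the opposite direction. Acaa2, the mitochondrial thiolase that splits off acetyl-CoA, averaged 71.3 ± 12.5 TPM (SD, n = 3) in D2A1 2D and 420 ± 10.2 TPM in D2.OR 2D (log2 fold change 2.71, SE 0.20, edgeR adjusted p = 9.19e-06). Its neighbours in the pathway moved less, with Hadhb at -0.54 and lower, and Hadha, Hadh and Echs1 not past the test. Ehhadh (chr16:21761287-21787844), the peroxisomal bifunctional enzyme, was at 0.09, 0.04 and 0.01 TPM in D2A1 2D and 2.98, 3.02 and 2.45 TPM in D2.OR 2D. That was a log2 fold change of 6.19 (SE 0.52, edgeR adjusted p = 2.28e-05) on 1 to 7 counts per D2A1 library. Hsd17b4, the other peroxisomal bifunctional enzyme, was slightly lower in D2.OR (-0.37), and Acaa1a and Acox3 did not pass. Among the 4 enzymes for unsaturated fatty acids, Eci1 was lower (-0.68) and Eci2, Decr1 and Decr2 did not pass. The calls of Eci1 and Hsd17b4 were lost without D2.OR 2D replicate 2 (adjusted p 0.066 and 0.0968), D2.OR 2D replicate 3 (0.0585 and 0.0508) or D2A1 2D replicate 2 (0.0565 and 0.0631), and that of Hadhb without D2.OR 2D replicate 3 (0.0508).

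None of the 3 lipolysis genes passed between the lines in 2D (0 with edgeR, with DESeq2 and at an unadjusted p under 0.05), and of the 6 genes of uptake, storage, activation and regulation Angptl4 and Cd36 were higher in D2.OR. Angptl4 (chr17:33773750-33781575), a secreted inhibitor of lipoprotein lipase, stood at 8.09, 7.02 and 6.08 TPM in D2A1 2D and 47.4, 117 and 186 TPM in D2.OR 2D (log2 fold change 3.74, SE 0.59, edgeR adjusted p = 0.000838). Cd36 (chr5:17781690-17888801), a fatty acid uptake receptor, had 0, 0.05 and 0 TPM in D2A1 2D, on at most 2 counts, and 0.10, 1.68 and 0.11 TPM in D2.OR 2D. The groups did not overlap (edgeR adjusted p = 0.00141), but the D2.OR 2D level rests mostly on replicate 2, and the other D2.OR 2D libraries stood little above D2A1. No fold is given on so few counts. The call was lost with limma on log2(TPM + 1) (difference 0.55, adjusted p = 0.579) and without batch 2 (edgeR adjusted p = 0.0918). Fabp4, Acsl1, Plin2 and Mlycd did not pass. Of the adipocyte markers tested, Plin1 (log2 fold change 6.12), Lep (7.39) and Cfd (5.34) were higher in D2.OR 2D. Cidec did not pass (2.70, edgeR adjusted p = 0.0757). The adipocyte marker sums were 3.16, 6.36 and 0.96 TPM in replicates 1, 2 and 3 of D2.OR 2D. The part of these markers in the result was not tested. In the plot of PPAR, Cpt1 and Ehhadh levels, Ppara and Cpt1c separate the lines in one direction and Pparg and Ehhadh in the other.

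**Figure D1:**
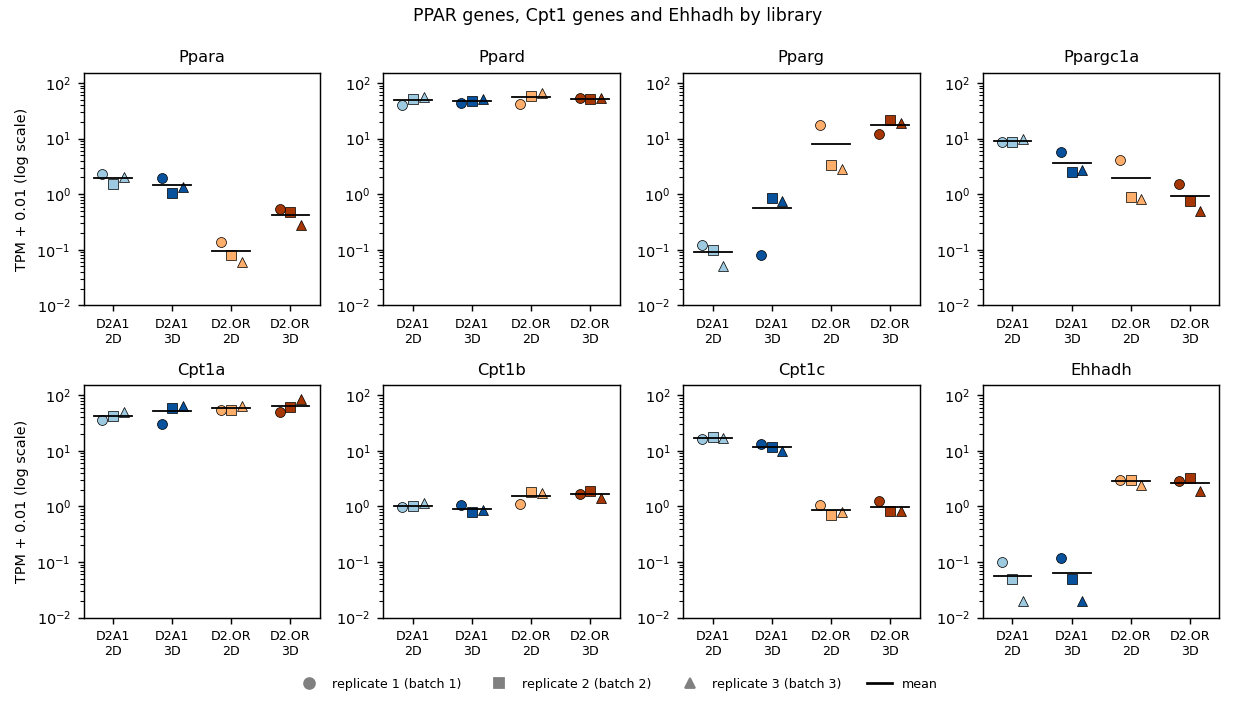
Level of 3 PPAR genes, the coactivator gene Ppargc1a, 3 Cpt1 genes and Ehhadh in each of 12 libraries, as TPM + 0.01 on a log axis, by cell line and culture; points are libraries, shapes are batches and bars are means of 3. Ppara and Cpt1c are lower, and Pparg and Ehhadh higher, in every D2.OR library than in any D2A1 library, while Ppard lies between 40.8 and 66.1 TPM throughout.

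In 3D the lines again differed in 21 of the 41 genes, now 13 higher and 8 lower in D2.OR. Over all genes tested 53.8% differed, 27.7% as higher and 26.1% as lower. The median log2 fold change of the 41 genes was 0.18, against 0.00 over all genes. The TPM of the lines did not overlap for 24 of the 41 genes and for 57.4% of all genes. Without batch 1, 2 or 3 the number of calls was 29, 14 and 13, where 56.9%, 31.0% and 35.2% of all genes passed. The 2D and 3D comparisons used different libraries, fitted with 1 shared estimate of the spread.

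In 3D, 7 of the 9 genes of lipolysis and of uptake, storage, activation and regulation were higher in D2.OR and none was lower. All 3 lipolysis genes were higher, with log2 fold changes of 4.53 for Mgll (monoacylglycerol lipase), 2.19 for Pnpla2 (adipose triglyceride lipase) and 1.46 for Lipe (hormone-sensitive lipase). Lipe lost its call without D2.OR 3D replicate 2 (log2 fold change 0.67, edgeR adjusted p = 0.113) and without any single D2A1 3D library (0.0554 to 0.0942). Pnpla2 had batch differences of 0.38, 3.38 and 2.32, and without batch 2 its log2 fold change was 1.39 (edgeR adjusted p = 0.093). Of the uptake and storage group 4 of 6 were higher, namely Cd36 (0, 0.06 and 0.01 TPM in D2A1 3D, on 0 to 6 counts per library, with no fold given, edgeR adjusted p = 1.49e-05), Angptl4 (3.48), Fabp4 (3.43) and Acsl1 (2.53). Plin2 (0.48, adjusted p = 0.0742) and Mlycd (0.50, adjusted p = 0.0501) did not pass. Angptl4 reached 63.9, 270 and 375 TPM in D2.OR 3D and 4.62, 26.2 and 31.1 TPM in D2A1 3D, without overlap. These D2.OR 3D libraries are also those in which the 6 adipocyte markers summed to 12.02 to 188 TPM against 0.10 to 0.20 TPM in D2A1 3D, 4 of the 4 markers tested were higher in D2.OR, and the part of those markers in the result was not tested.

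Pparg, Ppara and Ppargc1a differed in the same directions as in 2D. Pparg was at 0.07, 0.83 and 0.74 TPM in D2A1 3D and 11.9, 21.5 and 19.2 TPM in D2.OR 3D (log2 fold change 4.99, SE 0.99, edgeR adjusted p = 0.00255). Ppara was at 1.97, 1.03 and 1.33 TPM in D2A1 3D and 0.53, 0.46 and 0.27 TPM in D2.OR 3D (log2 fold change -2.13, SE 0.27, edgeR adjusted p = 0.000203). Ppargc1a was at 5.68, 2.5 and 2.72 TPM in D2A1 3D and 1.5, 0.73 and 0.49 TPM in D2.OR 3D (log2 fold change -2.11, SE 0.43, edgeR adjusted p = 0.00279). Ppard did not pass, at 43.6, 47.9 and 51.3 against 53.3, 51.2 and 53.1 TPM (log2 fold change 0.13, SE 0.10, edgeR adjusted p = 0.293). Pparg made up 24.6% ± 5.82 (SD, n = 3) of the summed receptor TPM in D2.OR 3D and 1.07% ± 0.806 in D2A1 3D.

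Among the enzymes, Ehhadh and Acaa2 were higher in D2.OR 3D by log2 fold changes of 5.69 and 2.71, and the carnitine carrier gene Slc25a20 by 0.64. Ehhadh was at 2.85, 3.19 and 1.88 TPM in D2.OR 3D and 0.11, 0.04 and 0.01 TPM in D2A1 3D. Cpt1c was at 1.24, 0.82 and 0.82 TPM in D2.OR 3D and 13.2, 11.7 and 9.83 TPM in D2A1 3D (log2 fold change -3.70, SE 0.20, edgeR adjusted p = 1.56e-06). Cpt1a did not pass, at 30.0, 60.2 and 65.4 against 50.6, 60.8 and 84.4 TPM (log2 fold change 0.32, SE 0.20). Cpt1b was at 1.06, 0.79 and 0.86 TPM in D2A1 3D and 1.63, 1.86 and 1.42 TPM in D2.OR 3D (log2 fold change 0.84, SE 0.23, edgeR adjusted p = 0.0138). Of the 7 acyl-CoA dehydrogenases, Acad10 (-1.42), Acad9 (-0.78), Acadl (-0.50) and Acad11 (-0.37) were lower and Acadm was higher (1.27), and Hadh (-0.52) was lower. Acad10 stood at 10.3, 8.33 and 7.10 TPM in D2A1 3D and 3.25, 4.17 and 2.53 TPM in D2.OR 3D. No gene for unsaturated fatty acids and no electron transfer flavoprotein gene passed with edgeR, where 1 of each had an unadjusted p under 0.05 and DESeq2 called 1 of each. Leaving out single libraries ended the calls of Acadl (adjusted p up to 0.16, without D2.OR 3D replicate 1), Acad11 (up to 0.121, without D2A1 3D replicate 1), Acadm (0.0603 without D2A1 3D replicate 2 and 0.0523 without replicate 3), Cpt1b (up to 0.0654, without D2A1 3D replicate 2) and Hadh (0.0545 without D2.OR 3D replicate 1 and 0.0509 without replicate 3). The other 15 calls in 3D held without each single library, but those of Pnpla2 and Slc25a20 were lost without batch 2 (adjusted p 0.093 and 0.118) and without batch 3 (0.0711 and 0.0798). In the plot of differences between the lines, the 7 dehydrogenases lie at or to the left of 0 in 2D. In 3D Acadvl, Acadl, Acads, Acad10 and Acad11 lie closer to 0, Acad9 lies farther to the left and Acadm to the right of it. The 3 lipolysis genes and Fabp4 and Acsl1 lie farther to the right in 3D than in 2D, and Angptl4 does not.

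**Figure D2:**
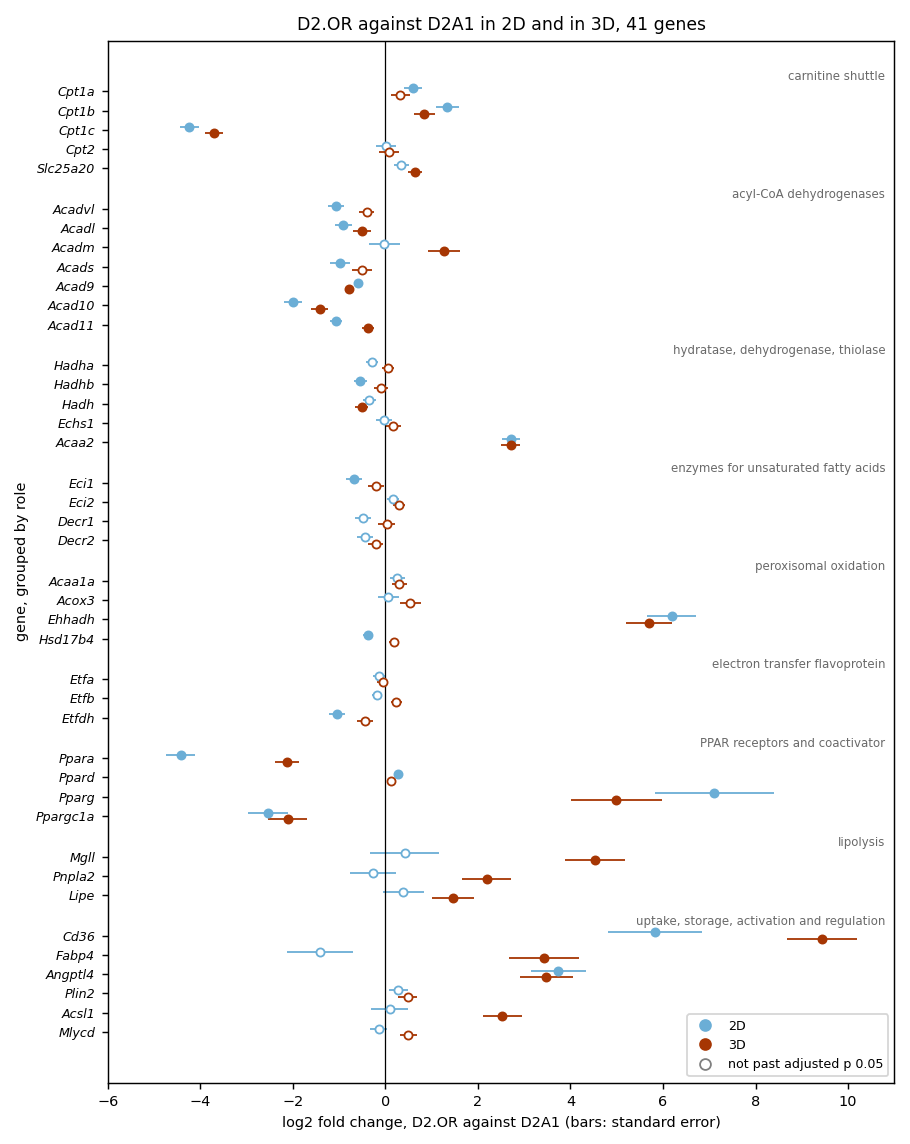
Log2 fold change of D2.OR against D2A1 for each of the 41 genes in 2D (light) and in 3D (dark), grouped by role; bars are standard errors of the edgeR fit, filled points passed an adjusted p of 0.05 and open points did not, and the positions of Cd36 rest on at most 6 counts per D2A1 library. Of 7 acyl-CoA dehydrogenases 6 are lower in 2D and 4 in 3D, and the 3 lipolysis genes are open points in 2D and filled ones above 1 in 3D.

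The next comparison asked what 3D culture changed within D2.OR, the line that stops proliferating there. It shares the D2.OR libraries with the comparisons between the lines. Of the 41 genes 5 passed, all higher in 3D, where 1.62% of all genes tested passed and 0.838% passed as higher. The median log2 fold change of the 41 genes was 0.28, against 0.00 over all genes. The 5 genes act in uptake (Cd36), intracellular transport (Fabp4), activation (Acsl1) and release (Mgll) of fatty acids and in their sensing (Ppara). All 5 differences were positive in each of the 3 batches, as were those of 10 of the 41 genes and of 23.8% of all genes tested. The TPM of 3D and 2D did not overlap for 14 of the 41 genes and for 20.6% of all genes. At an unadjusted p under 0.05 there were 16 of the 41 genes, and 17.6% of all genes, and DESeq2 called 10 of the 41 and 7.36% of all genes.

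Cd36 rose from 0.10, 1.68 and 0.11 TPM in D2.OR 2D to 0.81, 43.9 and 13.9 TPM in D2.OR 3D. The groups overlapped, since 3D replicate 1 lay below 2D replicate 2, but within batches the log2 CPM differences (CPM, counts scaled to library size) were 2.68, 5.16 and 6.59, and the fit gave a log2 fold change of 5.14 (SE 0.57, edgeR adjusted p = 0.00675). Limma on log2(TPM + 1) did not call Cd36 here (difference 2.84, adjusted p = 0.107). Mgll (chr6:88724412-88828360) rose from 0.08, 0.40 and 0.07 TPM to 1.94, 11.3 and 5.73 TPM (log2 fold change 5.14, SE 0.67, edgeR adjusted p = 0.012). D2A1 held 0.12 to 0.61 TPM of Mgll in all 6 libraries, below each D2.OR 3D library.

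Fabp4 (chr3:10204088-10208576), a fatty acid carrier abundant in adipocytes, rose from 6.45, 25.2 and 4.20 TPM to 50.9, 403 and 105 TPM (log2 fold change 3.94, SE 0.74, edgeR adjusted p = 0.041). In D2A1 2D it was at 33.9, 19.4 and 24.1 TPM, a difference from D2.OR 2D that did not pass (log2 fold change -1.40, SE 0.71, edgeR adjusted p = 0.131). In D2A1 3D it was at 18.1, 10.96 and 10.94 TPM. Acsl1 (chr8:46471037-46536051), a long-chain acyl-CoA synthetase, rose from 11.2, 17.9 and 14.1 TPM to 22.3, 158 and 71.6 TPM (log2 fold change 2.26, SE 0.42, edgeR adjusted p = 0.0401). D2A1 held 11.5 to 18.9 TPM of it over all 6 libraries, a range close to that of D2.OR 2D. Ppara rose from 0.13, 0.07 and 0.05 TPM to 0.53, 0.46 and 0.27 TPM (log2 fold change 1.73, SE 0.32, edgeR adjusted p = 0.0377), on 4 to 12 counts per library in 2D and 24 to 29 in 3D. Limma on log2(TPM + 1) did not call Ppara here (difference 0.39, adjusted p = 0.139). Unlike the other 4 genes, Ppara in D2.OR 3D was highest in replicate 1 and remained below every D2A1 library.

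The size of the rise differed between libraries. In D2.OR 3D, replicate 2 was the highest of the 3 libraries for 29 of the 41 genes, and the median ratio of highest to lowest library was 1.51. All of the 6 adipocyte markers except Lep were highest in that library too. Plin1, the perilipin of adipocyte lipid droplets, was at 6.33, 75.0 and 21.5 TPM in replicates 1, 2 and 3, Cfd at 2.98, 99.1 and 10.6 TPM, Cidec at 0.51, 10.86 and 5.55 TPM and Adipoq at 0.16, 2.03 and 0.35 TPM. Of the 4 adipocyte markers tested, Plin1, Cidec and Cfd rose in D2.OR 3D by log2 fold changes of 6.11, 6.23 and 4.33 and Lep did not pass (0.27), and 5 of the 6 markers exceeded 1 TPM in a D2.OR 3D library. Plin1 and Cidec are also PPAR-gamma targets. The 8 epithelial markers, most of whose TPM came from Krt8 and Krt18, summed to 1171 to 1730 TPM in D2.OR 2D and to 429 to 883 TPM in D2.OR 3D without overlap. Of the 7 tested 1 passed, Cdh1, which was lower in 3D (log2 fold change -1.36, SE 0.21, edgeR adjusted p = 0.0215), while Krt8 (-1.31, adjusted p = 0.125), Krt18 (-1.37, adjusted p = 0.115) and Krt14 (0.93, adjusted p = 0.54) did not. The part of the adipocyte and epithelial markers in the rise of Cd36, Mgll, Fabp4, Acsl1 and Ppara was not tested. The plot of these genes by library shows both.

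**Figure D3:**
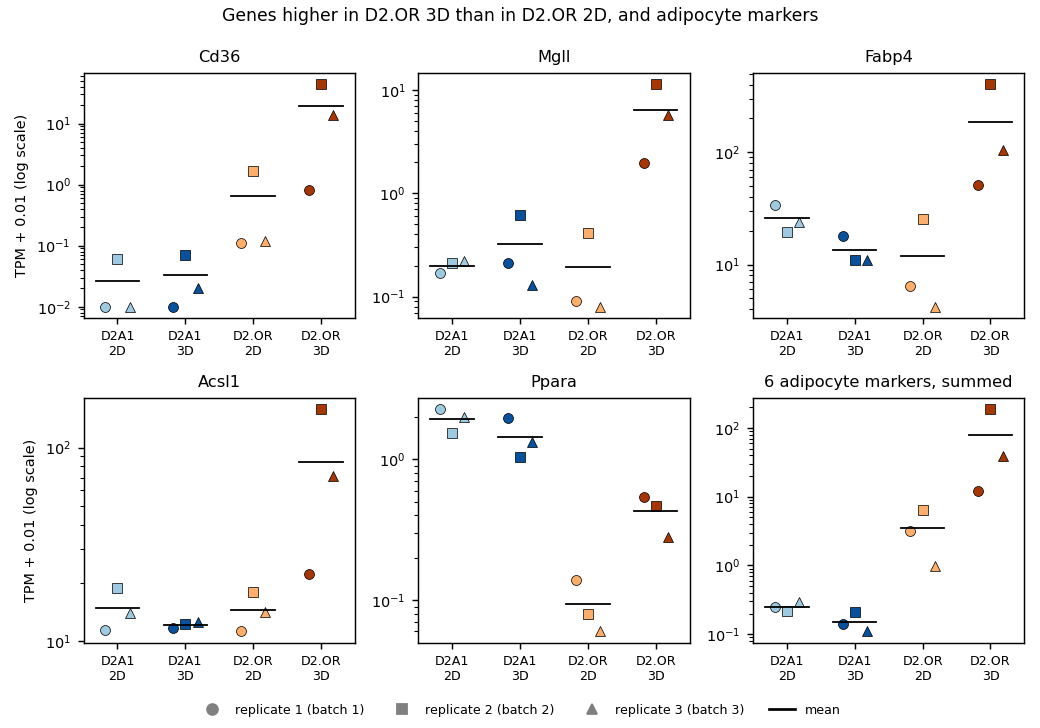
TPM + 0.01 on a log axis for the 5 genes that passed as higher in D2.OR 3D than in D2.OR 2D, and the summed TPM of 6 adipocyte markers, in each of 12 libraries; points are libraries, shapes are batches and bars are means of 3. In D2.OR 3D, replicate 2 is highest for Cd36, Mgll, Fabp4, Acsl1 and the marker sum (188 TPM), and Ppara stays below all D2A1 libraries.

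The 5 calls did not hold in every fit with a library or the batch term left out. The share of all genes passing in those fits is not given here. A loss in these genes and a general loss of calls therefore cannot be told apart. None of the 41 genes passed without D2.OR 2D replicate 2, D2.OR 2D replicate 3 or D2.OR 3D replicate 2, only Cd36 passed without D2.OR 3D replicate 3, and 2 to 3 genes passed without replicate 2 or 3 of either D2A1 group. Without D2.OR 3D replicate 2 the log2 fold changes were 5.08 for Cd36, 4.93 for Mgll, 3.07 for Fabp4, 1.63 for Acsl1 and 1.61 for Ppara (edgeR adjusted p 0.0855 to 0.21). Without D2.OR 2D replicate 2 they were, in the same order, 5.03, 6.15, 4.70, 2.115 and 1.86. Without D2.OR 2D replicate 3 they were 4.42, 4.76, 3.63, 2.24 and 1.49. Without D2.OR 2D replicate 1, Cd36, Mgll and Pparg passed, and without D2.OR 3D replicate 1, 8 genes did. With no batch term none passed (edgeR adjusted p 0.0651 to 0.134 for the 5 genes). The log2 fold changes in that fit were 5.38 for Cd36, 5.04 for Mgll, 3.95 for Fabp4, 2.49 for Acsl1 and 1.70 for Ppara.

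The following genes did not pass in D2.OR 3D with edgeR, although DESeq2 called Pnpla2, Lipe and Acadm. Pnpla2 went from a mean of 41.7 ± 13.02 TPM to 130 ± 86.7 TPM (SD, n = 3), a log2 fold change of 1.61 (SE 0.52, edgeR adjusted p = 0.156), with batch differences of -0.15, 2.68 and 1.76. Lipe (1.33, adjusted p = 0.185) and Acadm (0.97, adjusted p = 0.176) likewise stood higher in batches 2 and 3 and not in batch 1. Pparg had batch differences of -0.68, 2.67 and 2.75 and a fitted log2 fold change of 1.19 (SE 0.92, edgeR adjusted p = 0.538). Ppargc1a had -1.01 (SE 0.42, edgeR adjusted p = 0.257), and Angptl4 0.88 (SE 0.52, edgeR adjusted p = 0.418). Acad10 and the 3 Cpt1 genes had log2 fold changes between -0.00 and 0.34 and did not pass, and Ehhadh had -0.18 (SE 0.37).

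In D2A1 no gene of the 41 passed between 3D and 2D (edgeR), where 3.48% of all genes tested did. At an unadjusted p under 0.05 there were 8, and 31.4% of all genes. DESeq2 called 5 of the 41 and 21.3% of all genes, and limma called 1 of the 41. The TPM of 3D and 2D did not overlap for 7 of the 41 genes and for 24.8% of all genes. Ppargc1a came closest, at a log2 fold change of -1.44 (SE 0.41, edgeR adjusted p = 0.0657), with 8.57 to 9.91 TPM in 2D and 2.5 to 5.68 TPM in 3D and no overlap. Decr2 (-0.54, adjusted p = 0.0757), an enzyme for unsaturated fatty acids in peroxisomes, and Acox3 (-0.63, adjusted p = 0.103), a peroxisomal oxidase, followed. Pparg had a log2 fold change of 3.30 (SE 1.37, edgeR adjusted p = 0.139) with batch differences of 0.04, 2.95 and 3.44, on 2 to 5 counts per library in 2D and 3 to 55 in 3D. Angptl4 showed the same split by batch, with -0.70, 2.06 and 2.46. Fabp4, Acsl1 and Ppara had log2 fold changes of -0.89, -0.17 and -0.56, negative in each batch, and did not pass.

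The interaction of cell line and culture asked whether 3D changed a gene differently in the lines. No gene of the 41 passed (edgeR), and 0.0238% of all genes tested did. At an unadjusted p under 0.05 there were 12 genes, all positive, and 17.8% of all genes, and DESeq2 called 7, all positive, where it called 5.61% of all genes. Limma on log2(TPM + 1) called none. The 4 with the smallest p were Ppara (log2 difference 2.30, SE 0.40, edgeR adjusted p = 0.0892), Fabp4 (4.83, SE 0.99, adjusted p = 0.0988), Mgll (4.11, SE 0.97, adjusted p = 0.12) and Acsl1 (2.43, SE 0.58, adjusted p = 0.122). Each was positive in all 3 batches, as were 10 of the 41 genes and 20.7% of all genes. The median over the 41 genes was 0.43, against -0.01 over all genes, and by batch it was -0.17, 0.69 and 0.68.

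In the median over the 41 genes, batch 1 stood apart from the other batches in the D2.OR response and the interaction. In D2.OR the batch 1 median of 3D minus 2D was -0.15 log2 CPM, against 0.56 and 0.42 in batches 2 and 3. In D2A1 the medians were 0.03, -0.02 and -0.19. Leaving batch 1 out raised the share of all genes passing in both lines, from 1.62% to 8.38% in D2.OR and from 3.48% to 36.3% in D2A1. Fitted without batch 1, 20 of the 41 genes passed in D2.OR, all higher, where 8.38% of all genes passed and 3.69% as higher. Beside the 5 genes above these included Pparg (log2 fold change 2.72, SE 0.17, edgeR adjusted p = 0.000787), Pnpla2 (2.29), Lipe (2.06), Acadm (1.36), Angptl4 (1.08), Acadl (0.75) and Plin2 (0.60). In D2A1 17 passed, 4 higher and 13 lower, where 36.3% of all genes passed, 17.4% as higher and 18.9% as lower. Pparg (3.68) and Angptl4 (2.24) were higher there too, while Ppargc1a (-1.73), Pnpla2 (-1.30), Acox3 (-0.99) and Decr2 (-0.79) were lower. In the interaction 24 passed, 23 positive, where 17.8% of all genes passed and 9.17% as positive. The smallest p were those of Acsl1 (log2 difference 3.00), Pnpla2 (3.59), Decr1 (0.99) and Acadm (1.95). Of those that passed, Fabp4 (5.04) and Mgll (3.81) had the largest differences, and Angptl4 was the negative one (-1.16). These fits have 2 libraries a group. Without batch 2 or without batch 3, none of the 41 genes passed in D2.OR or in the interaction. The D2.OR log2 fold changes of Cd36, Mgll, Fabp4, Acsl1 and Ppara were 4.95, 5.84, 3.87, 1.68 and 1.76 without batch 2. Without batch 3 they were 4.33, 4.61, 3.71, 2.23 and 1.45 (edgeR adjusted p 0.235 to 0.529 over both fits). The share of all genes passing without batch 2 or 3 is not given here.

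**Figure D4:**
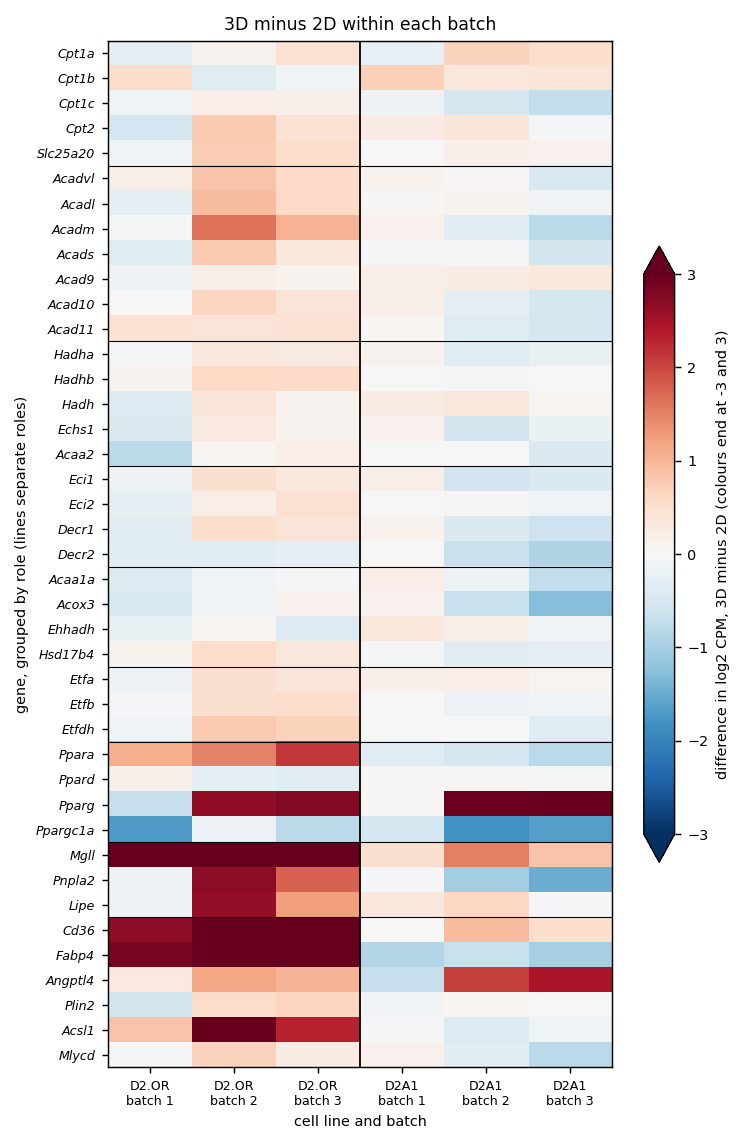
Difference in log2 CPM between 3D and 2D within each batch for the 41 genes in D2.OR (left columns) and D2A1 (right columns); red is higher in 3D, blue is lower, and colours end at -3 and 3. In D2.OR most genes are red in batches 2 and 3 and pale or blue in batch 1 (medians 0.56, 0.42 and -0.15), and Cd36, Mgll, Fabp4, Acsl1 and Ppara are red in all 3.

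Further genes of the same pathways, in 6 lists of 84 genes of which 75 were tested, were read beside the 41. These lists too were chosen with earlier results of these data known. Between the lines 30 of the 75 differed in 2D, 15 in each direction, where 49.8% of all genes did. In 3D 40 differed, 30 higher and 10 lower in D2.OR, where 53.8% of all genes differed, 27.7% as higher and 26.1% as lower. The list of acyl-CoA synthetases, transporters and thioesterases had 1 higher and 5 lower of 12 in 2D, and 1 higher and 4 lower in 3D. The 12 other genes of peroxisomal oxidation and transport had 2 higher and 3 lower in 2D, and 6 higher and 1 lower in 3D. The list of triglyceride and lipid droplet genes had 4 higher and 1 lower of 15 in 2D, and 9 higher and none lower in 3D. In it, Lpl, the lipoprotein lipase that frees fatty acids from circulating lipoproteins and that Angptl4 inhibits, averaged 0.69 and 0.84 TPM in D2A1 2D and 3D and 96.8 and 391 TPM in D2.OR 2D and 3D (log2 fold change in 2D 7.59, SE 0.62, edgeR adjusted p = 1.87e-05). Of 12 other PPAR targets tested, 3 were higher and 2 lower in 2D, and 6 higher and 1 lower in 3D. Pdk4, which slows glucose oxidation and is a common PPAR target, averaged 0.05 TPM in D2A1 2D, 0.03 in D2A1 3D, 5.67 in D2.OR 2D and 29.2 in D2.OR 3D. It differed between the lines in 2D (log2 fold change 9.05, SE 0.43, edgeR adjusted p = 7.95e-07) and between 3D and 2D in D2.OR (2.38, SE 0.24, adjusted p = 0.00623). With so little Pdk4 in D2A1, the size of the difference between the lines is limited by depth. In D2.OR 3D against 2D 5 of the 75 rose and 1 fell, where 1.62% of all genes passed (edgeR). At an unadjusted p under 0.05 there were 29, against 17.6% of all genes, and DESeq2 called 24, against 7.36% of all genes, and limma 6. Plin1 and Cidec, already counted as adipocyte markers, and Pex11a (1.76), a peroxisome proliferation factor, were among those that rose. In D2A1 1 of the 75 passed, Acsl5, another acyl-CoA synthetase gene (1.03, SE 0.21, edgeR adjusted p = 0.0421), where 3.48% of all genes did, and DESeq2 called 7, against 21.3% of all genes. In the interaction none of the 75 passed (edgeR), where 0.0238% of all genes did. At an unadjusted p under 0.05 there were 22, against 17.8% of all genes, and DESeq2 called 11, against 5.61% of all genes, and limma 0.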

How the data were processed

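Reads of 12 bulk RNA-seq libraries had been checked with FastQC 0.11.4, trimmed with Trimmomatic 0.32, aligned with STAR 2.5.3 to GRCm38 with GENCODE genes and quantified with RSEM 1.3.0, according to the submitters' processing notes and the study's methods. The authors deposited expected counts per gene, not normalized, and TPM, for 47589610 to 73325069 counts per library. Expected counts (not whole for 10.7% to 11.8% of genes) were rounded, genes were kept by filterByExpr, and edgeR 4.0.16 (R 4.3.3; TMM, glmQLFit, glmQLFTest) was fitted to 4 groups and 3 batches over all 12 libraries, with 21.2% biological coefficient of variation. Genes were called at a Benjamini-Hochberg adjusted p of 0.05 over all 16823 genes tested. SE is the log2 fold change over the square root of F. Levels are TPM, and batch differences are log2 CPM with a prior count of 2. The code was tested on simulated data.

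The members and lists were chosen with earlier results of these data known. TPM and statistics are given for the PPAR and Cpt1 genes, the 4 largest called changes in each direction of each comparison and the 4 smallest p of the interaction, and further members by range or count. Of the pathway lists, the 2 largest changes called in 2D and the 2 smallest p of the interaction may be named.

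Batch is the replicate number. Sample names and run identifiers tie each number to 1 batch and 1 lane (8, 6 and 7), and deviations from group means correlated between libraries of 1 number (18 pairs, 0.0758 to 0.511, median 0.267) and less between numbers (median -0.195), so batch was kept as a block, as in the study's model. Whether replicates were separate cultures is not stated in the labels, so p-values measure the spread between these libraries. Alternatives were no block, DESeq2 1.42.0, limma 3.58.1 on log2(TPM + 1), RLE size factors, no filter, and leaving out each library or batch. Promoter windows came from RefSeq. All columns of the files matched a library (0 left out).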

Additional observations from a re-analysis of the deposited data

Results flagged for a closer look

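For 5 of the 41 genes, every batch moved up from 2D to 3D in D2.OR and every batch moved down in D2A1, a pattern that 3.44% of all genes tested showed. This opposite movement of the batches was not itself tested, and in the fit across all genes none of the 5 interaction terms passed an adjusted p of 0.05 (edgeR). DESeq2 called those of Ppara, Fabp4, Acsl1 and Hsd17b4, and edgeR with no filter on low counts those of Fabp4 and Ppara.

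Fabp4 had the largest interaction of the 5, 4.83 on the log2 scale (adjusted p = 0.0988), with differences of 2.85, 4.0 and 4.64 in D2.OR and -0.87, -0.66 and -1.0 in D2A1. Acsl1 had 2.43 (adjusted p = 0.122), with 0.86, 3.09 and 2.31 in D2.OR and -0.05, -0.41 and -0.14 in D2A1. Ppara had 2.30 (adjusted p = 0.0892), with 1.06, 1.48 and 2.12 in D2.OR and -0.37, -0.50 and -0.80 in D2A1. Hsd17b4 had 0.55 (adjusted p = 0.155), with 0.11, 0.56 and 0.33 in D2.OR and -0.05, -0.31 and -0.29 in D2A1. Hadhb had 0.45 (adjusted p = 0.283), with 0.10, 0.59 and 0.58 in D2.OR, while its differences of -0.01, -0.02 and -0.00 in D2A1 lay close to 0.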

How the results depend on the processing

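The counts of called genes in 2D between the lines lay between 14 and 28 when a library or batch was left out (21 in the fit reported), and those in 3D between 13 and 29 (21). For D2.OR 3D against 2D (5), no replicate block gave 0, DESeq2 10, limma 3, and leaving out a library or batch 0 to 20. For D2A1 3D against 2D (0), DESeq2 gave 5, limma 1, no filter on low counts 1, and leaving out a library or batch 0 to 17. For the interaction (0), DESeq2 gave 7, no filter on low counts 2, and leaving out a library or batch 0 to 24. The share of all genes passing moved as well. In D2.OR 3D against 2D it was 1.62% in the fit reported, 7.36% with DESeq2 and 8.38% without batch 1. In D2A1 it was 3.48%, 21.3% and 36.3%, and in the interaction 0.0238%, 5.61% and 17.8%. The counts in this paragraph are therefore not a measure of these genes alone. The causes were not tested, although leaving libraries out also lowers the number of samples. Among the 47 called values and the 4 interaction terms with the smallest p, over all alternatives, 869 of 1020 kept direction and side of the threshold, 136 lost and 15 gained a call, and none of the 1020 changed direction. Over all 41 genes and 5 comparisons, 0 of the 47 called values and 55 of the 158 others changed sign under some alternative, such as Ehhadh (-0.18, from -0.39 to 0.14) and Cpt1a (0.08, from -0.09 to 0.30) in D2.OR 3D against 2D. Taking out the replicate block ended 9 of the 47 calls. Genes with few counts in a line (Cd36, Ehhadh, Pparg and Mgll in D2A1, Ppara in D2.OR) have fold changes limited by depth.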

Other observations

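Of the lists not described above, the genes of malonyl-CoA and AMP-activated kinase, which set the entry of fatty acids into mitochondria, had 3 higher and 3 lower of 10 in D2.OR 2D against D2A1, and 4 higher and 3 lower in 3D, where 49.8% and 53.8% of all genes tested differed. Prkaa2, a catalytic subunit of the kinase, averaged 2.13 TPM in D2A1 2D, 1.22 in D2A1 3D, 0.10 in D2.OR 2D and 0.34 in D2.OR 3D, a log2 fold change between the lines in 2D of -4.17 (SE 0.42, edgeR adjusted p = 6.25e-05). Of 14 PPAR partners and coregulators tested, 2 were higher and 1 lower in 2D, and 4 higher and 1 lower in 3D, against the same shares of all genes. Rxra, the retinoid X receptor partner of the PPARs, averaged 40.0, 27.9, 34.2 and 58.9 TPM in D2A1 2D, D2A1 3D, D2.OR 2D and D2.OR 3D, and differed between the lines in 3D (log2 fold change 1.07, SE 0.21, edgeR adjusted p = 0.00223).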
